A study of Mus musculus with 8 samples.

Results

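The genes of fatty acid oxidation and of the response to peroxisome proliferator-activated receptors (PPARs) were followed across the cell classes of mouse liver. The set was given by symbol, and all 33 of its members were found among the 31053 genes of the count matrix. Cells came from a high fat, high cholesterol (HFHC) diet group of 4 mice and a control diet group of 4 mice, each kept on its diet for 20 to 32 weeks, and each mouse gave a single 10x Genomics library, per the labels. Titles of the HFHC samples speak of calories where the series text speaks of cholesterol, and the fourth HFHC animal is titled animal 14. All mice are labelled C57BL/6 males, bought at 6 to 8 weeks of age. Live non-parenchymal cells had been sorted with antibodies to CD45, CD31, CD146 and PDPN to enrich stromal cells. P-values of the diet fits below measure the spread between mice of the same diet, with 1 library for each mouse. Those of the class fit measure the spread left among class sums once a term for the library is taken out.

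After each cell barcode was kept only in the library where it had most unique molecular identifiers (UMIs), 3192 of 3416 cells were left, with 47 to 857 cells and 304090 to 2309209 UMIs in the HFHC libraries, and 55 to 875 cells and 170448 to 1775987 UMIs in the control libraries. HFHC 1, HFHC 2, HFHC 3, control 1 and control 2 shared 33 to 65 barcodes in every pair before that step, and every other pair shared at most 4. Cells were put in a class by marker genes, and each class is called X-like because it rests on transcripts. Hepatocyte-like cells came almost wholly from HFHC 3, with 648 cells, and control 2, with 673 cells. All 14 of their markers were detected, although none stood among the class's 10 leading genes, which included Fabp1 and Acaa1b of the set itself. Sinusoidal endothelial-like (LSEC-like) cells reached 10 cells in HFHC 4, with 533 cells, and in controls 1 to 4, with 21, 57, 551 and 39 cells. Control 4 is labelled male, but 67 of its 94 cells held UMIs of Xist and none held a Y-linked UMI. Leaving it out changed no count of called members given below.

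Mitochondrial beta oxidation shortens fatty acids in repeated rounds of dehydrogenation, hydration, dehydrogenation and thiolysis, after carnitine has carried them across the inner membrane. Hepatocytes burn fatty acids in this way during fasting and turn the acetyl-CoA into ketone bodies, and PPAR alpha is the nuclear receptor known to drive these genes in liver. PPARs bind DNA with a retinoid X receptor at a pair of AGGTCA elements separated by a single base, called DR1.

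The members were first read at their promoters. In RefSeq promoters of the GRCm38.p6 build, from 250 bases before each start to 50 after it, the letters AGGTCA, any base and AGGTCA again were searched on both strands, and 29 members were matched to the table. With at most 1 mismatch the motif stood in 1 of these 29, Fabp1, against 0.644% of all genes. With at most 2 mismatches it stood in 3 of 29, Fabp1, Etfa and Slc25a20, against 4.40% of all genes, and with at most 3 mismatches in 8 of 29, against 27.3%. A match is a string of letters and not a known binding site. The 3 closest matches are printed here in capitals, followed by the start of Hadhb and that of Ucp2, whose windows hold no match with at most 3 mismatches. Hadhb is shown because its partner subunit starts 86 bases away on the other strand by GENCODE vM21 positions, which differ from the RefSeq starts used here. Ucp2 is shown because it was the member called lower in hepatocyte-like cells. Each line gives the 150 bases before the start and the first 20 bases from it, read along the gene's own strand.
Fabp1: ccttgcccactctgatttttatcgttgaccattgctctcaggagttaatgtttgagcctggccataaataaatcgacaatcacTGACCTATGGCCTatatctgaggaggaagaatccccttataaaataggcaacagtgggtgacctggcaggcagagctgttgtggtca
Etfa: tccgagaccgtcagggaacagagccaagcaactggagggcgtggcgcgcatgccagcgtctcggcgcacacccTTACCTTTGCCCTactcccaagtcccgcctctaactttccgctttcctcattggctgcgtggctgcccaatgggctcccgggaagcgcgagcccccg
Slc25a20: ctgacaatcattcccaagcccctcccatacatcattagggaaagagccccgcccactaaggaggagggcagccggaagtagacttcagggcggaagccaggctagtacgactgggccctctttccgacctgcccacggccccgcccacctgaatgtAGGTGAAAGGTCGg
Hadhb: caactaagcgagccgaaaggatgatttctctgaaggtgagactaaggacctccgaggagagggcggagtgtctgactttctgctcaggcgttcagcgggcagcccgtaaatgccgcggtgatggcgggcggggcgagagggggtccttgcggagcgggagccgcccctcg
Ucp2: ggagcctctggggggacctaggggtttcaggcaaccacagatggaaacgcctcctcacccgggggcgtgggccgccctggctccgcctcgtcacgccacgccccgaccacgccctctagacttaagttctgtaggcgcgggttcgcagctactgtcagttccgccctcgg
The windows lie at chr6:71199729-71199898 on the plus strand for Fabp1, chr9:55512224-55512393 on the minus strand for Etfa, chr9:108661986-108662155 on the plus strand for Slc25a20, chr5:30155103-30155272 on the plus strand for Hadhb and chr7:100493208-100493377 on the plus strand for Ucp2. The Fabp1 match ran from 67 to 55 bases before the start and had the reverse strand's letters, the Etfa match from 77 to 65 bases before the start, also on the reverse strand, and the Slc25a20 match from 6 to 18 bases after the start.

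The summed level of the set was higher in hepatocyte-like cells than in any other class. Its 33 members together held 4.71% of the UMIs of hepatocyte-like cells in HFHC 3 and 4.11% in control 2. In LSEC-like cells they held 0.116% in HFHC 4, against 0.129, 0.289, 0.129 and 0.0966% in controls 1 to 4. The other class sums lay between 0.110% in vascular endothelial-like cells of HFHC 4 and 0.744% in neutrophil-like cells of HFHC 3. Levels are given as CPM, the UMIs of a gene per 1000000 UMIs of a library's class. They compare a gene between classes, and not different genes with each other. Fabp1 made up most of the sum in hepatocyte-like cells. Without it the set had 15265 CPM in HFHC 3 and 11713 CPM in control 2, against at most 3145 CPM in the other class sums. For 19 of the 33 members both hepatocyte sums lay above every other class sum, a share not computed over all genes. Cpt1a, Acsl1, Hadha, Ehhadh, Pdk4 and Ucp2 were among the rest.

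**Figure D1:**
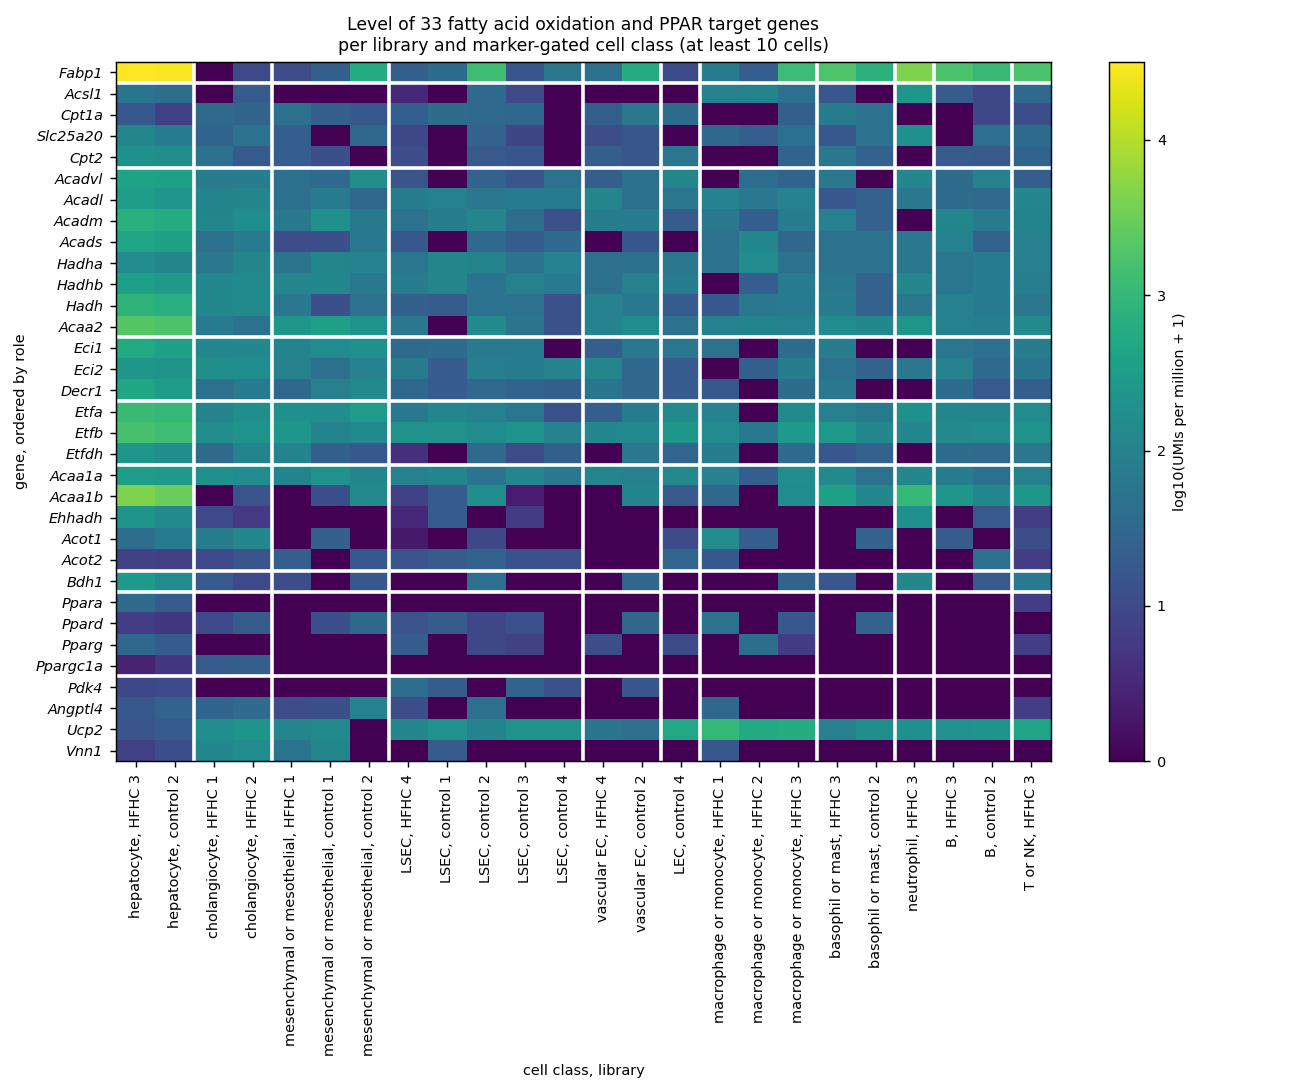
Level of each of the 33 members (rows, ordered by role) in each library and class with at least 10 cells (columns, HFHC before control in a class), as log10 of CPM plus 1. The pair of hepatocyte-like columns is the brightest for Fabp1 and for most enzymes, while Ucp2 is brightest in macrophage or monocyte-like cells.

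To ask where the genes are used, each class was set against LSEC-like cells with edgeR's quasi-likelihood test, with a term for the library. The fit held 21 sums of 8 libraries and 8 classes, tested 3593 genes and, of the set, 23 of 33 members. Hepatocyte-like cells had 20 of these 23 members higher than LSEC-like cells and 1 lower at an adjusted p below 0.05, where 24.8% of all tested genes were higher and 26.4% lower. The median log2 difference was 3.73 over the 23 members and 0.13 over all tested genes; with DESeq2 size factors these medians were 3.42 and -0.15, and the counts of called members did not change. The filter can keep a gene for its level in a single class, so the 23 do not stand for all members and their count and median are in part set by it. With no filter, 23 of all 33 members were higher and 0 lower, where 9.34% of 16883 genes were higher and 6.28% lower, and the medians were 3.72 and 0.29. Hepatocyte-like cells and LSEC-like cells both reached 10 cells only in control 2, so the hepatocyte sums behind these values come from 2 mice. The counts rest on control 2. Without it 4 members were higher, Fabp1, Acadm, Acaa2 and Acot1, and 0 lower, in a fit with 1 residual degree of freedom that had no library with both classes, where 268 genes in all were called, against 1840 with it. Without HFHC 3 the fit had 3 residual degrees of freedom, and the median log2 difference over all tested genes was 0.38, against 0.13 with it. In both fits the lone hepatocyte sum is assumed to vary like the sums of other classes. The other 17 calls among the tested members were lost without control 2. Of these, Hadhb and Bdh1 changed direction, Ucp2 stayed lower, and the rest had log2 differences from 0.49 for Eci2 to 11.98 for Acads.

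Fabp1, which encodes the liver's cytosolic fatty acid binding protein, had 31849.7 CPM in hepatocyte-like cells of HFHC 3 and 29397 CPM in those of control 2. LSEC-like cells had 22.7 CPM in HFHC 4, against 37.8, 1293, 15.1 and 60.4 CPM in controls 1 to 4. Both hepatocyte sums lay far above all LSEC sums, and among the LSEC sums control 2 stood alone at the top. The log2 difference was 5.31 ± 0.67 (SE, adjusted p = 1.2e-04). The gene lies at chr6:71199827-71205023 (mm10, GENCODE vM21), and 97.8% of its 86741 UMIs came from hepatocyte-like cells. Besides the levels, its promoter window carries the closest DR1 match among the members that could be searched, shown above.

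The fatty acid enters the mitochondrion through the carnitine shuttle. Cpt2, the inner membrane carnitine acyltransferase, had 184 CPM in HFHC 3 and 165 CPM in control 2 in hepatocyte-like cells, and at most 17 CPM in LSEC-like cells. Its log2 difference was 4.33 ± 0.96 (adjusted p = 1.6e-04). Acsl1, the acyl-CoA synthetase that activates long fatty acids, Slc25a20, the carnitine-acylcarnitine carrier, and Cpt1a, the outer membrane enzyme that sets the rate of entry, did not pass the filter on low counts. Slc25a20 had 115 CPM in HFHC 3 and 70.6 CPM in control 2, and 181 CPM in neutrophil-like cells of HFHC 3 on 3 UMIs. Acsl1 had 55.7 CPM in HFHC 3 and 41.5 CPM in control 2 in hepatocyte-like cells, below the 242 CPM of neutrophil-like cells of HFHC 3 on 4 UMIs, and macrophage or monocyte-like cells had 96.7, 105 and 43.5 CPM in HFHC 1 to 3. For Cpt1a, hepatocyte-like cells had 16.1 CPM in HFHC 3 and 6.18 CPM in control 2, and LSEC-like cells had 21.6 CPM in HFHC 4, against 37.8, 34, 31.5 and 0 CPM in controls 1 to 4. Only 24.4% of the 135 Cpt1a UMIs were in hepatocyte-like cells. With no filter on low counts, Slc25a20 was higher in hepatocyte-like cells (log2 3.14, adjusted p = 0.015), and Cpt1a (log2 -1.41, adjusted p = 0.542) and Acsl1 (log2 1.53, adjusted p = 0.524) did not pass.

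Of the 8 enzymes of the oxidation cycle all were tested, and 7 were higher in hepatocyte-like cells. Acaa2, the mitochondrial thiolase of the last step, had 2104 CPM in HFHC 3 and 1763 CPM in control 2 in hepatocyte-like cells. LSEC-like cells had 60.5 CPM in HFHC 4, against 0, 136, 52.9 and 12.1 CPM in controls 1 to 4. The hepatocyte sums did not overlap with the LSEC sums, and the log2 difference was 5.12 ± 0.53 (adjusted p = 1.3e-10). Hadh, the hydroxyacyl-CoA dehydrogenase of short and medium chains, had 852 CPM in HFHC 3 and 684 CPM in control 2 and differed by 4.81 ± 0.60 (adjusted p = 3.9e-09). The acyl-CoA dehydrogenases open each round on chains of falling length: Acadvl differed by 4.72, Acadl by 2.98, Acadm by 3.61 and Acads by 4.21 on the log2 scale, with adjusted p from 9.1e-08 for Acadm to 1.6e-05 for Acadl. Acadm, the gene of medium-chain dehydrogenase, had 732 CPM in HFHC 3 and 599 CPM in control 2.

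Hadha and Hadhb encode the alpha and beta subunits of the mitochondrial trifunctional protein. By GENCODE vM21 positions they start 86 bases apart on opposite strands of chromosome 5. They had the smallest log2 differences of the 8 cycle enzymes, a ranking with no test. Hadhb had 351 CPM in HFHC 3 and 259 CPM in control 2 in hepatocyte-like cells. LSEC-like cells had 78.9 CPM in HFHC 4, against 113, 51, 90.7 and 72.5 CPM in controls 1 to 4, and the log2 difference was 2.44 ± 0.59 (adjusted p = 5.0e-04); without control 2 it was -0.61 (adjusted p = 1). Hadha had 145 CPM in HFHC 3 and 114 CPM in control 2 in hepatocyte-like cells. LSEC-like cells had 57.2 CPM in HFHC 4, against 113, 102, 51.7 and 96.6 CPM in controls 1 to 4. The hepatocyte sums of Hadha lay only just above the highest LSEC sum, and its log2 difference of 1.25 ± 0.57 missed the threshold (adjusted p = 0.063). It passed with no filter on low counts (log2 1.73, adjusted p = 0.038), with no library term (log2 1.47, adjusted p = 0.0012) and without HFHC 3 (log2 1.35, adjusted p = 0.046). No test compared Hadha with Hadhb.

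The auxiliary enzymes act on unsaturated chains, and the electron transfer proteins take the electrons of the dehydrogenases. Eci1 (log2 3.24) and Eci2 (log2 2.32), enoyl-CoA isomerases, and Decr1 (log2 4.12), the dienoyl-CoA reductase, were all higher in hepatocyte-like cells, with adjusted p of 1.0e-05, 8.6e-04 and 6.6e-07. Etfa and Etfb encode the subunits of the electron transfer flavoprotein. Etfb had 1547 CPM in HFHC 3 and 1292 CPM in control 2 in hepatocyte-like cells. LSEC-like cells had 201 CPM in HFHC 4, against 189, 153, 205 and 96.6 CPM in controls 1 to 4. Etfb was thus present in every LSEC sum, and it differed by 3.36 ± 0.49 (adjusted p = 1.2e-07). Etfa had 1184 CPM in HFHC 3 and 979 CPM in control 2 in hepatocyte-like cells and differed by 3.73 ± 0.56 (adjusted p = 1.9e-07). Etfdh, which hands the electrons to ubiquinone, differed by 3.09 ± 0.84 (adjusted p = 0.0017).

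Among the peroxisomal genes, Acaa1b, a peroxisomal thiolase, had 4363 CPM in HFHC 3 and 2959 CPM in control 2 in hepatocyte-like cells. LSEC-like cells had 6.48 CPM in HFHC 4, against 18.9, 162, 1.26 and 0 CPM in controls 1 to 4. Both hepatocyte sums exceeded all others, and the log2 difference was 4.78 ± 0.60 (adjusted p = 7.3e-09). Its neighbour Acaa1a, 182583 bases away on chromosome 9, had 329.6 CPM in HFHC 3 and 268 CPM in control 2 in hepatocyte-like cells. LSEC-like cells had 89.7 CPM in HFHC 4, against 113, 51, 116 and 60.4 CPM in controls 1 to 4, and the log2 difference was 2.72 ± 0.54 (adjusted p = 3.1e-05). The copies are alike in sequence, so reads may have been split between them and the value of each is uncertain. Ehhadh, the peroxisomal bifunctional enzyme, had 215 CPM in HFHC 3 and 137 CPM in control 2, and at most 18.9 CPM in LSEC-like cells, where control 1 had 1 UMI. Its log2 difference was 7.80 ± 1.79 (adjusted p = 2.8e-04; DESeq2 gave it no adjusted p). Bdh1, the mitochondrial enzyme that makes beta-hydroxybutyrate, had 263 CPM in HFHC 3 and 148 CPM in control 2 and differed by 2.60 ± 0.88 (adjusted p = 0.012; 2.98 with DESeq2, not past the threshold, and -0.57 without control 2).

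The thioesterases Acot1, cytosolic, and Acot2, mitochondrial, are near-identical copies 15617 bases apart on chromosome 12, and their counts are likewise uncertain. Acot1 had 39 CPM in HFHC 3 and 68.9 CPM in control 2 in hepatocyte-like cells and at most 8.5 CPM in LSEC-like cells, a log2 difference of 6.14 ± 1.89 (adjusted p = 0.0056; 5.43 with DESeq2, not past the threshold). Acot2 did not pass the filter: hepatocyte-like cells had 6.8 CPM in HFHC 3 and 6.18 CPM in control 2, and LSEC-like cells had 13 CPM in HFHC 4, against 18.9, 25.5, 12.6 and 12.1 CPM in controls 1 to 4.

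The receptors themselves were sparse. Ppara, the PPAR alpha gene, had 79 UMIs in all, of which 96.2% were in hepatocyte-like cells, with 34.6 CPM in HFHC 3 and 17.7 CPM in control 2, and 0 UMIs in every LSEC sum. A count of 0 allows up to 3.24 CPM in the 925800 UMIs of HFHC 4, for counting error only. Pparg, better known from fat cells, had 30.9 CPM in HFHC 3 and 19.4 CPM in control 2 in hepatocyte-like cells, and LSEC-like cells had 19.4 CPM in HFHC 4, against 0, 8.5, 6.3 and 0 CPM in controls 1 to 4. Ppard had 5.57 CPM in HFHC 3 and 4.42 CPM in control 2 in hepatocyte-like cells and up to 48.3 CPM, on 3 UMIs, in macrophage or monocyte-like cells of HFHC 1. Ppargc1a, their coactivator, had 15 UMIs in all, and its level was 17.8 and 22.4 CPM in cholangiocyte-like cells of HFHC 1 and HFHC 2 on 2 and 5 UMIs.

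The remaining members are PPAR targets outside oxidation. Ucp2, a carrier of the inner mitochondrial membrane, had 14.2 CPM in HFHC 3 and 17.7 CPM in control 2 in hepatocyte-like cells. LSEC-like cells had 121 CPM in HFHC 4, against 189, 102, 202 and 205 CPM in controls 1 to 4. Every LSEC sum exceeded both hepatocyte sums, and Ucp2 was the member that was lower in hepatocyte-like cells (log2 -1.69 ± 0.62, adjusted p = 0.018). That call was lost without HFHC 1 (log2 -1.34), without HFHC 3 (log2 -1.11), without control 2 (log2 -2.05) and with no filter on low counts (log2 -1.24). Pdk4, a kinase that inhibits pyruvate dehydrogenase, had 8.66 CPM in HFHC 3 and 8.83 CPM in control 2 in hepatocyte-like cells. Angptl4, an inhibitor of lipoprotein lipase, had 16.7 CPM in HFHC 3 and 24.7 CPM in control 2 in hepatocyte-like cells and its highest level, 97.9 CPM on 6 UMIs, in mesenchymal or mesothelial-like cells of control 2. Vnn1, a pantetheinase, had 6.18 CPM in HFHC 3 and 10.6 CPM in control 2 in hepatocyte-like cells and at most 18.9 CPM in LSEC-like cells (log2 5.77 ± 2.67, adjusted p = 0.066), where the sum of control 1, on 1 UMI, lay above both hepatocyte sums and the other LSEC sums were at 0 UMIs. Vnn1 passed with no filter on low counts (adjusted p = 0.049), with no library term (adjusted p = 0.015) and without HFHC 3 (adjusted p = 0.042).

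A wider list of 82 genes of the same pathways, none of them in the set, had 26 tested genes. In hepatocyte-like cells 17 were higher and 3 lower than in LSEC-like cells, where 24.8% of all tested genes were higher and 26.4% lower. The median log2 difference over the 26 was 2.91. By group, 4 of 4 tested mitochondrial oxidation genes, 6 of 6 peroxisomal genes and 3 of 4 ketone body genes were higher. The other groups were mixed. Of the other PPAR targets, Plin2 and Acot13 were higher, Fabp4 and Gpihbp1 lower, and Cd36, Lpl and Fabp5 did not pass. Among the regulators, Sirt3 was higher, Nrip1 lower, and Ncor1 did not pass. For transport and activation, Mlycd was higher and Acsl5 did not pass. The filter can keep a gene for its level in a single class, so these counts and the median are in part set by it. They were not computed without the filter. Echs1, the enoyl-CoA hydratase missing from the set, differed by 4.41 ± 0.56 (adjusted p = 4.9e-09) and Scp2, of the peroxisome, by 4.83 ± 0.34 (adjusted p = 2.7e-16). The 3 that were lower were Fabp4 (log2 -5.12) and Gpihbp1 (log2 -6.49), known in capillary endothelium, and Nrip1 (log2 -2.52), a corepressor. Without control 2, 4 genes of the wider list were higher, Scp2 among them, and 0 lower; Fabp4 was at -4.56 and Gpihbp1 at -6.78, and 3 called genes changed direction, Nrip1 at 1.60, Abcd3 at -1.85 and Nudt7 at -1.27.

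**Figure D2:**
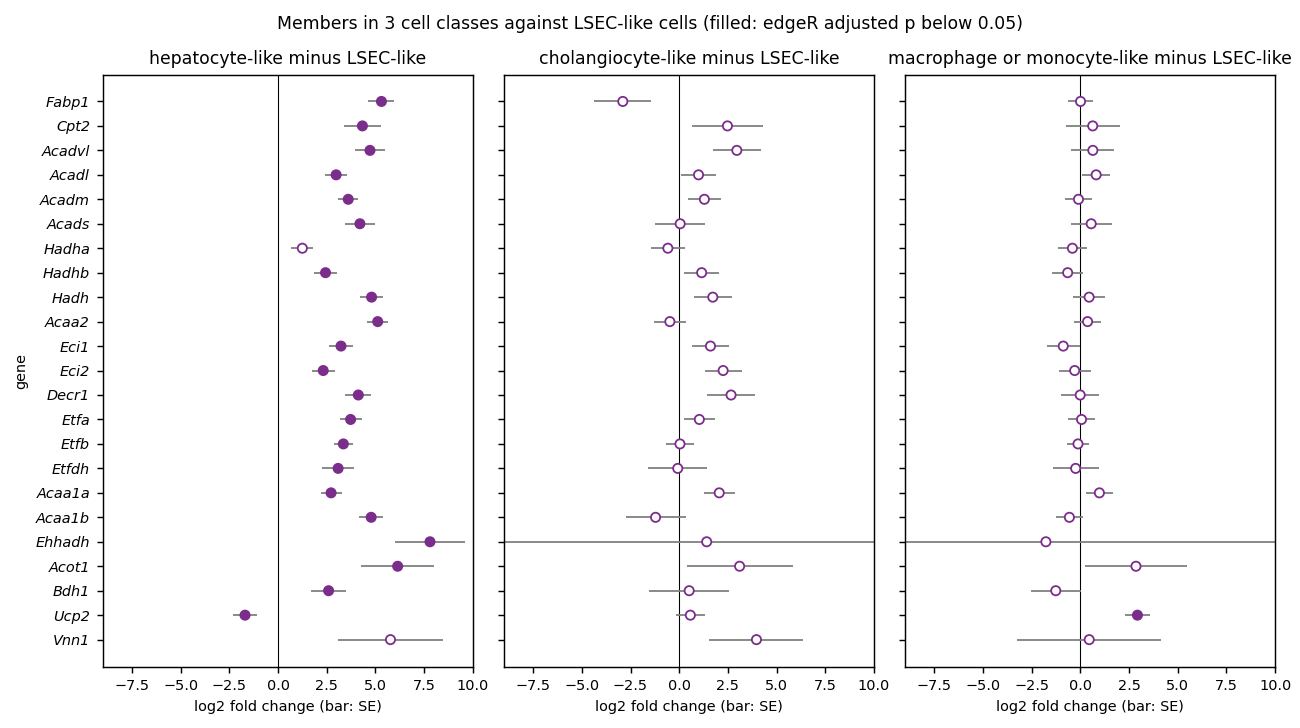
Log2 difference of the 23 tested members in hepatocyte-like, cholangiocyte-like and macrophage or monocyte-like cells against LSEC-like cells (points, with the SE as bar; filled where the adjusted p was below 0.05; the bars of Ehhadh run off the axis in the right-hand panels). Hepatocyte-like cells have 21 filled points, 20 of them right of 0 and Ucp2 left of it, cholangiocyte-like cells have none, and macrophage or monocyte-like cells have Ucp2 alone.

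In macrophage or monocyte-like cells, 1 of the 23 tested members was higher than in LSEC-like cells and 0 were lower, where 6.04% of all tested genes were higher and 5.4% lower. That member was Ucp2. It had 983, 567 and 609 CPM in these cells of HFHC 1, 2 and 3, on 61, 27 and 112 UMIs. All 3 macrophage sums exceeded every LSEC sum, and the log2 difference was 2.93 ± 0.63 (adjusted p = 8.3e-04). No library had 10 cells of both classes, so the library term ties them together through other classes. Ucp2 did not pass without HFHC 3 (log2 1.99) or without control 2 (log2 2.81), the fit that kept 1 residual degree of freedom. Ucp2 also had 501 CPM in lymphatic endothelial-like cells of control 4 and 422 CPM in T or NK-like cells of HFHC 3, classes with 1 sum each that were not tested. Of the wider list, Lpl, the lipoprotein lipase that macrophages are known to make, was higher in macrophage or monocyte-like cells (log2 9.44 ± 2.69, adjusted p = 0.028).

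Mesenchymal or mesothelial-like cells had 3 members higher than LSEC-like cells and 0 lower, where 8.15% of all tested genes were higher and 8.15% lower. Acaa2 had 243 CPM in HFHC 1, and 363 and 196 CPM in controls 1 and 2 of this class, above all LSEC sums (log2 1.75 ± 0.55, adjusted p = 0.022). Acadvl had 42.3 CPM in HFHC 1, and 34.1 and 163 CPM in controls 1 and 2 (log2 2.71 ± 0.91, adjusted p = 0.03). Decr1 had 31.7 CPM in HFHC 1, and 90.8 and 131 CPM in controls 1 and 2 (log2 2.26 ± 0.78, adjusted p = 0.035), and the sums of Acadvl and Decr1 overlapped with those of LSEC-like cells. None of the 3 passed with DESeq2 or without control 1, where Acaa2 differed by 0.66.

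Cholangiocyte-like cells, the bile duct epithelium, had 0 members past the threshold in either direction with edgeR, where 2.42% of all tested genes were higher and 2.73% lower, but 4 members at an unadjusted p below 0.05 and, with DESeq2, 0 past it. The median log2 difference was 1.15 over the members and 0.19 over all genes. These cells reached 10 cells only in HFHC 1 and HFHC 2, where LSEC-like cells did not, so the library term ties the classes together through other classes. Without that term 7 members were higher, where 610 of all 3593 tested genes were higher and 497 lower. Among the 7 were Vnn1 (log2 6.95, adjusted p = 1.3e-04), Acot1 (log2 6.02, adjusted p = 4.9e-04) and Hadh (log2 2.02, adjusted p = 9.8e-04). Vnn1 had 125 and 152 CPM in cholangiocyte-like cells of HFHC 1 and HFHC 2, above the 6.18 and 10.6 CPM of hepatocyte-like cells in HFHC 3 and control 2. Acot1 had 80.2 and 126 CPM in them. Fabp1 was at 0 and 8.97 CPM, on 0 and 2 UMIs, in these sums, where 0 UMIs allow up to 26.7 CPM. Alb, the albumin gene, had 856 and 1785 CPM there. In hepatocyte-like cells Fabp1 was 10.6 times Alb in HFHC 3 and 5.0 times Alb in control 2, so the cholangiocyte-like sums held Alb with little or no Fabp1. Whether those Alb UMIs came from hepatocytes was not tested.

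B-like, basophil or mast-like and vascular endothelial-like cells had 0 members past the threshold against LSEC-like cells, with edgeR and with DESeq2, where 7.65, 9.21 and 1.53% of all tested genes were higher and 12.9, 11 and 1.48% lower. At an unadjusted p below 0.05 there were 2, 0 and 1 members.

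Hepatocyte RNA that is free in the droplets can bring members into other classes. In HFHC 3 and control 2 the 14 hepatocyte markers gave each of 10 other class sums a share of hepatocyte RNA, from 3.05% in vascular endothelial-like cells of control 2 to 14.1% in neutrophil-like cells of HFHC 3. At its class's share, Fabp1 would be expected at a set level, and in 8 of the 10 sums its 95% counting interval lay below that level and in 0 above. In macrophage or monocyte-like cells of HFHC 3, Fabp1 had 222 UMIs, 0.702 times (0.613 to 0.801) the level at the share, and in LSEC-like cells of control 2 it had 152 UMIs, 0.715 times (0.606 to 0.838) that level. Whether these Fabp1 UMIs came from free hepatocyte RNA was not tested. The intervals of Acaa1b and Acaa2 in LSEC-like cells of control 2 held the level at the share, at 0.888 times (0.535 to 1.39) and 1.25 times (0.717 to 2.04).

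Other members exceeded the share. Etfb lay above it in 6 of the 10 sums, with 3.25 times (2.42 to 4.29) the level in macrophage or monocyte-like cells of HFHC 3. Acaa1a had 9.17 times (6.18 to 13.1) and Acadl 5.66 times (3.35 to 8.94) the level in the same cells. Hadha had 9.83 times (5.62 to 16) the level in T or NK-like cells of HFHC 3 and 14.6 times (7.53 to 25.5) in LSEC-like cells of control 2. For the counts that follow, a level was comparable where at least 1 UMI was expected at the share. That left out members sparse in hepatocyte-like cells, such as Ucp2, and also Hadha in LSEC-like cells of control 2. In T or NK-like cells, 13 of 21 members with a comparable level lay above the share, 1 below and 7 within the interval. Of the 10 sums this one had most members above the share. Macrophage or monocyte-like cells of HFHC 3 had 10 of 21, and LSEC-like cells of control 2 had 8 of 18. Also in control 2, mesenchymal or mesothelial-like cells had 5 of 10, vascular endothelial-like cells 3 of 7 and B-like cells 5 of 17. Fewer lay above it in B-like cells of HFHC 3, with 1 of 14, and in neutrophil-like cells of HFHC 3, with 0 of 10. Basophil or mast-like cells had 2 of 18 in HFHC 3 and 0 of 7 in control 2. The share of all genes above this level was not computed, so the counts do not set the members apart from other genes. In HFHC 3 the T or NK-like sum held 180073 UMIs and the neutrophil-like sum 16533 UMIs. The part of depth in the counts was not tested.

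**Figure D3:**
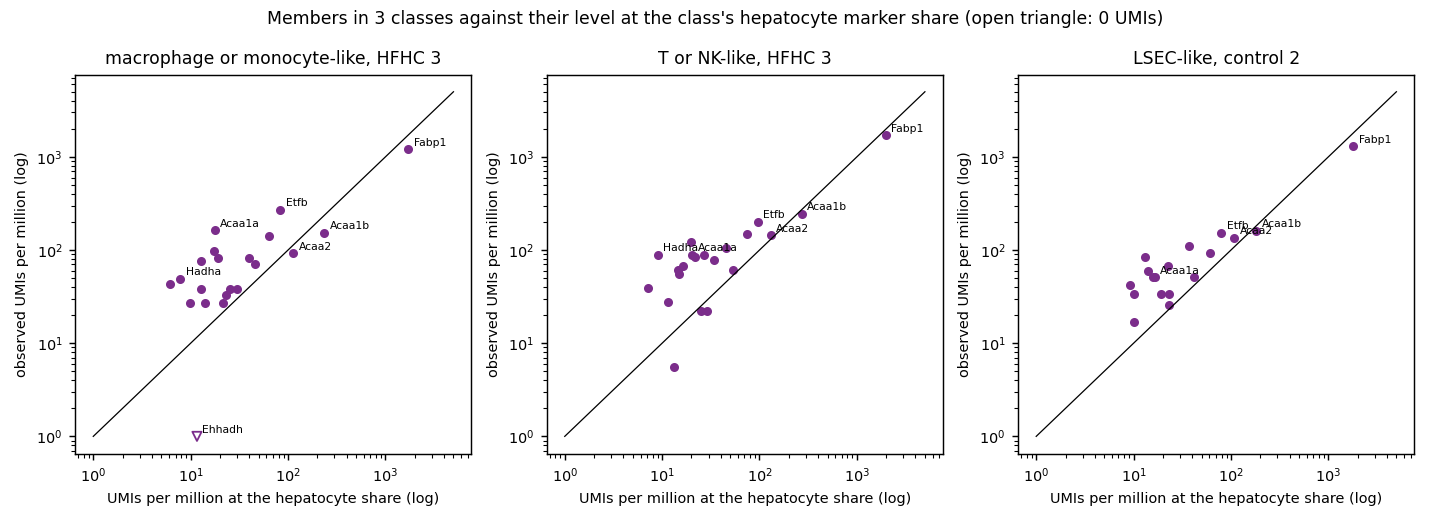
Members in macrophage or monocyte-like and T or NK-like cells of HFHC 3 and in LSEC-like cells of control 2: the observed CPM (vertical, log axis) against the level at the class's hepatocyte marker share (horizontal, log axis), with the line of equality and an open triangle for 0 UMIs. Only members with a comparable level, as defined in the text, are drawn. Fabp1 lies below the line in all 3 panels, and Etfb and Acaa1a lie above it.

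The diet comparison asks whether the set differs between HFHC and control livers. In hepatocyte-like cells it rests on HFHC 3 and control 2 alone, 1 library each, so the ratios carry exact 95% intervals for counting error only and no test. Of the set, 30 members had at least 20 UMIs in the pair, and 25 had a ratio above 1; of all 6321 genes, 63.5% did. The median ratio was 1.24 over the members and 1.12 over all genes. At least 1.5-fold higher in HFHC 3 were 7 members, where 19.7% of all genes were, and at least 1.5-fold lower were 2, where 10.7% of all genes were. With ratios scaled to the median gene, 3 of the 30 members were at least 1.5-fold higher, where 13% of all genes were, and 3 at least 1.5-fold lower, where 14.2% were.

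Cpt1a had 16.1 CPM in HFHC 3, against 6.18 CPM in control 2, a ratio of 2.6 (1.1 to 7.1) on 26 and 7 UMIs. Ppara had 34.6 CPM in HFHC 3, against 17.7 CPM in control 2, a ratio of 1.96 (1.16 to 3.45). Bdh1 had 263 CPM in HFHC 3, against 148 CPM in control 2, a ratio of 1.77 (1.48 to 2.13). The intervals of all 3 lay above 1. Slc25a20 at 1.63 (1.25 to 2.14), Ehhadh at 1.57 (1.3 to 1.91) and Decr1 at 1.5 (1.32 to 1.71) followed with intervals above 1, and Pparg at 1.59 (0.946 to 2.76) with an interval that held 1.

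Of the 30 members, 21 lay within 1.5-fold of equality. Eci1 at 1.49 (1.32 to 1.67), Acaa1b at 1.47 (1.41 to 1.54) and Etfdh at 1.45 (1.21 to 1.73) were just under 1.5-fold. The cycle enzymes ran from 1.06 (0.937 to 1.2) for Acadvl to 1.39 (1.2 to 1.62) for Acadl, with Acaa2 at 1.19 (1.13 to 1.26), Hadh at 1.25 (1.14 to 1.36), Hadhb at 1.36 (1.17 to 1.57) and Hadha at 1.28 (1.02 to 1.59). Fabp1, on 51508 UMIs in HFHC 3 and 33292 UMIs in control 2, had a ratio of 1.08 (1.07 to 1.1). Etfa at 1.21 (1.12 to 1.3) and Etfb at 1.2 (1.12 to 1.28), which form a dimer, had overlapping intervals. Lower in HFHC 3 were Acot1, with 39 CPM in HFHC 3, against 68.9 CPM in control 2, a ratio of 0.566 (0.399 to 0.799), and Vnn1, at 0.584 (0.226 to 1.47) on 10 and 12 UMIs, with an interval that held 1. Pdk4 at 0.98 (0.405 to 2.47) and Angptl4 at 0.675 (0.383 to 1.19), which are PPAR targets outside oxidation, had intervals that held 1.

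In the wider list, 53 genes had at least 20 UMIs in the pair, with a median ratio of 1.27, and 17 were at least 1.5-fold higher in HFHC 3 and 7 at least 1.5-fold lower. Scaled to the median gene, 10 were higher and 8 lower; the shares over all genes are those given above. Of the lipid droplet genes, Plin2 had 1356 CPM in HFHC 3 and 489 CPM in control 2, a ratio of 2.77 (2.52 to 3.05), and Plin5 was at 2.84 (1.95 to 4.24) and Cidec at 2.83 (1.76 to 4.75). Crot, the peroxisomal carnitine octanoyltransferase, was at 1.66 (1.49 to 1.85), and Rxra, the PPAR partner, at 2.16 (1.36 to 3.54). Fabp4 at 0.15 (0.0732 to 0.283) and Gpihbp1 at 0.111 (0.021 to 0.376), known in endothelium, were lower in HFHC 3. LSEC-like cells numbered 2 in HFHC 3 and 57 in control 2, and vascular endothelial-like cells 7 in HFHC 3 and 18 in control 2. The part of endothelial RNA in the ratios of Fabp4 and Gpihbp1 was not tested. The pair also differed apart from the set. Mitochondrial transcripts made 0.101% of the UMIs of hepatocyte-like cells in HFHC 3 and 4.49% in control 2, and of the 14 hepatocyte markers 6 had a ratio above 1 and 8 below, with a median of 0.856 and Alb at 0.511. The part of these differences in the ratios was not tested, and with 1 mouse each, diet cannot be told apart from mouse.

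**Figure D4:**
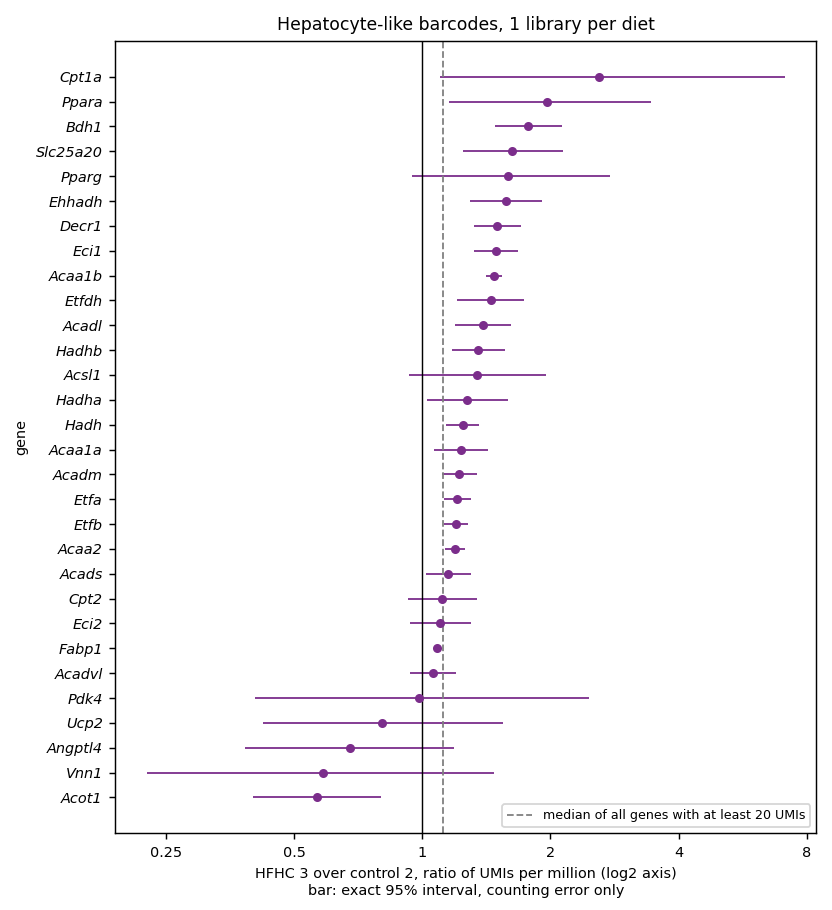
Ratio of HFHC 3 over control 2 in hepatocyte-like cells for the 30 members with at least 20 UMIs in the pair (points on a log2 axis, bars for the exact 95% counting interval), with a dashed line at the median of all genes, 1.12. Cpt1a and Ppara are at the top, at 2.60 and 1.96, and Acot1 is at the bottom, at 0.566.

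In LSEC-like cells, where HFHC 4 could be set against controls 1 to 4, edgeR tested 12 of the 33 members and called 0, where 0.192% of the 3123 tested genes were higher and 0.128% lower. DESeq2 also called 0 members, and 0 had an unadjusted p below 0.05. The spread among HFHC mice cannot be seen with 1 HFHC library. The median log2 difference was 0.02 over the 12 members and -0.09 over all genes, and without control 4 it was -0.19 over 23 members, again with 0 called.

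HFHC 4 lay inside the range of the controls for all 12 tested members, as it did for 70.8% of the 3123 tested genes. Etfb had 201 CPM in HFHC 4, against 189, 153, 205 and 96.6 CPM in controls 1 to 4 (log2 0.39 ± 0.49). Acadl, the long-chain dehydrogenase, had 77.8 CPM in HFHC 4, against 94.6, 59.5, 69.3 and 72.5 CPM in controls 1 to 4 (log2 0.24 ± 0.65). Acadm (log2 -0.13 ± 0.99), Hadha (log2 -0.43 ± 0.66), Hadhb (log2 0.08 ± 0.60), Eci2 (log2 0.02 ± 0.66), Acaa1a (log2 0.14 ± 0.56), Etfa (log2 0.02 ± 0.75) and Acaa2 (log2 0.21 ± 0.89) were within 1 SE of no difference, and all these have an adjusted p of 1.00. Fabp1 and Acaa1b had the most negative differences, -3.88 ± 3.81 and -2.68 ± 2.25, with wide errors, and control 2 alone was high for both. Ucp2 had 121 CPM in HFHC 4, against 189, 102, 202 and 205 CPM in controls 1 to 4 (log2 -0.41 ± 0.51, adjusted p = 1.00); HFHC 4 stood below controls 1, 3 and 4 and above control 2.

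The deepest pair of LSEC sums, HFHC 4 with 533 cells over control 3 with 551, holds 22 members with at least 20 UMIs, and their median ratio was 1.00, against 0.915 over all 7438 such genes. Pparg was at 3.09 (1.1 to 10.6) on 18 UMIs in HFHC 4 and 5 UMIs in control 3, and Pdk4 at 1.55 (0.888 to 2.78). Ucp2 was at 0.60 (0.467 to 0.769), Hadh at 0.51 (0.286 to 0.887) and Eci1 at 0.518 (0.323 to 0.818), with intervals below 1. Over the 5 libraries Pdk4 had 41 CPM in HFHC 4, against 18.9, 0, 26.5 and 12.1 CPM in controls 1 to 4, and Pparg had 19.4 CPM in HFHC 4, against 0, 8.5, 6.3 and 0 CPM in controls 1 to 4; neither passed the filter on low counts. The ratios are of 1 mouse over 1 mouse and carry no test. Of the wider list, 15 genes were tested over the 5 libraries and 2 were higher in HFHC 4, the fatty acid binding protein Fabp5 (log2 1.78 ± 0.35, adjusted p = 5.5e-04) and the fatty acid receptor Cd36 (log2 1.69 ± 0.35, adjusted p = 0.0014). With 1 HFHC library these p-values carry the spread of the controls alone. Fabp5 did not pass without control 1 (log2 1.70, adjusted p = 0.072), and Cd36 did not pass without control 2 (log2 1.59, adjusted p = 0.151).

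**Figure D5:**
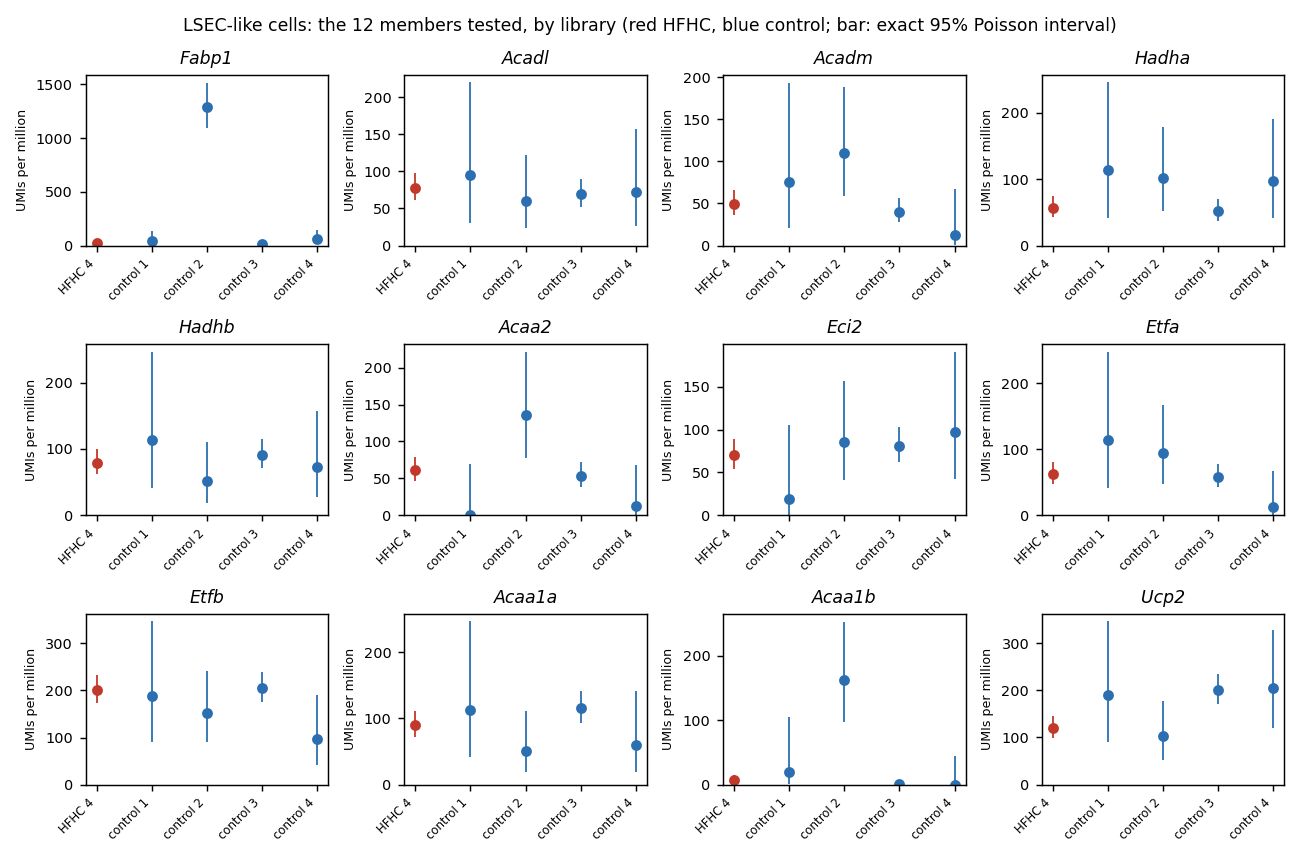
CPM of the 12 tested members in LSEC-like cells (vertical, from 0) by library, HFHC 4 in red and controls 1 to 4 in blue, with exact 95% Poisson intervals. HFHC 4 lies inside the control range in all 12 panels, and control 2 is far above the other libraries for Fabp1 and Acaa1b.

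With all cells of a library summed, 23 members were tested over 4 HFHC and 4 control libraries and 0 were called, where 0.0% of 6666 genes were called in either direction; 0 members had an unadjusted p below 0.05, and DESeq2 called 0. The median log2 difference over the members was 0.43, but it was -0.95 without HFHC 3 and 1.82 without control 2, the libraries with hepatocyte-like cells. With the barcode-sharing set of libraries as a term it was -0.02, with 0 called. Here fewer cells of a type and less RNA per cell cannot be told apart. The set's level was 1963, 2278, 34174 and 1144 CPM in HFHC 1 to 4, against 1801, 27085, 1291 and 2044 CPM in controls 1 to 4. Hepatocyte markers were highest in the same libraries, at 13175 CPM in HFHC 3 and 19077 CPM in control 2. They were at 158 to 4002 CPM in the other HFHC libraries and 568 to 1694 CPM in the other controls. Between HFHC 3 and control 2, the set was higher in HFHC 3 and the markers were higher in control 2. The part of hepatocyte RNA in the result was not tested.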

How the data were processed

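Sorted liver stromal cells of 4 HFHC and 4 control mice were sequenced. The authors deposited raw UMI counts for each gene in each cell; per the submitters' processing notes they used Cell Ranger 3.0.1 and Seurat on mm10, and the annotation release is not given in the sources used here. A barcode found in several libraries stayed only where its UMI total was highest. A cell took a class where at least 3 of that class's markers were detected and its scaled marker score clearly led the next class; 66 cells with markers of several classes were set aside as mixed and 74 had no class. This stood in for a doublet caller, which was not run. Sums over the cells of a library and class, from 10 cells up, were fitted by edgeR 4.0.16 under R 4.3.3 (quasi-likelihood, TMM scaling, filterByExpr, robust) with Benjamini-Hochberg adjustment over all genes and a threshold of 0.05. An SE is the log2 difference over the square root of F. The class fit had library and class as terms, and the diet fits had diet alone. Ratios of single libraries used exact conditional 95% intervals (scipy 1.17.1), genes with at least 20 UMIs and a fold of 1.5. Intervals cover counting error only, and a count of 0 allows up to 3 counts. Every member with at least 20 UMIs in all is named, with values in full for members past the threshold and for up to 15 with most UMIs. The members, a wider list of 82 genes in 6 groups, the markers and the tests were chosen with earlier results of these data known. Settings tried besides were DESeq2 1.42.0, edgeR with DESeq2 size factors, no low-count filter, keeping barcode copies, 1 more marker per cell, minima of 5 and 20 cells, no library term, sets of libraries as a term, the replicate number as a block, and each library left out in turn.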

Additional observations from a re-analysis of the deposited data

Results flagged for a closer look

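Among the 4 libraries of a diet group, single libraries stood apart from the rest; chance alone would flag about 1 in 20 such groups. With all cells summed, the set's level was 34174 CPM in HFHC 3, far above the other HFHC libraries, and 27085 CPM in control 2, far above the other controls. Without Fabp1 it was 11366 CPM in HFHC 3 and 8020.3 CPM in control 2, again apart from the others. The hepatocyte markers stood apart in control 2, at 19077 CPM. In LSEC-like cells, control 2 stood apart from the other controls for the whole set, at 2892 CPM, for Fabp1, at 1293 CPM, and for Acaa1b, at 162 CPM, all above the other controls, and for Ucp2, at 102 CPM, below them. LSEC-like cells of control 2 also held the most hepatocyte marker RNA of the LSEC sums, at 1769 CPM, against 164 CPM in HFHC 4 and 218 to 640.1 CPM in the other controls. The part of that RNA in the values was not tested.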

How the results depend on the processing

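Over 366 member calls under alternatives, 327 kept their direction and their side of the threshold, 37 kept their direction but no longer passed, and 2 reversed, Hadhb at -0.61 and Bdh1 at -0.57 in hepatocyte-like cells without control 2, against up to 3.01 and 2.90 with another library left out. DESeq2 gave no adjusted p for 1 more, Ehhadh. The 21 members called in hepatocyte-like cells became 4 to 22 when a library was left out, 4 without control 2; keeping the lone hepatocyte sum in such a fit was decided after seeing the data. The counts of called members in the other classes moved. In B-like cells, 0 became 1 with 1 more marker per cell, 2 with no library term and 0 to 1 when a library was left out. In cholangiocyte-like cells, 0 became 3 with barcode copies kept and 7 with no library term. In macrophage or monocyte-like cells, 1 became 3 with no library term and 0 to 1 when a library was left out. In mesenchymal or mesothelial-like cells, 3 became 0 with DESeq2, 1 with no low-count filter, 1 with barcode copies kept, 1 with 1 more marker per cell, 7 with no library term, 1 with at least 5 cells and 0 to 3 when a library was left out. The hepatocyte-like members at least 1.5-fold higher in HFHC 3 went down to 3, against 7, when ratios were scaled to the median gene, an alternative added after seeing the data. Counts over all genes moved as well. In LSEC-like cells, 10 genes called with diet became 45 with DESeq2 and 5 to 16 when a library was left out. Against LSEC-like cells with no library term, 737 became 1141 in B-like, 728 became 1182 in basophil or mast-like, 185 became 1107 in cholangiocyte-like, 411 became 1224 in macrophage or monocyte-like and 586 became 989 in mesenchymal or mesothelial-like cells. With barcode copies kept, cholangiocyte-like cells had 839 and macrophage or monocyte-like cells 808, the second 675 with at least 5 cells. DESeq2 called 389 in mesenchymal or mesothelial-like cells and 52, against 108, in vascular endothelial-like cells. With a library left out, counts went down to 268, against 1840, in hepatocyte-like, 102 in cholangiocyte-like, 112 in macrophage or monocyte-like and 308 in mesenchymal or mesothelial-like cells, and up to 181 in vascular endothelial-like cells. With DESeq2 size factors cholangiocyte-like cells had 75 genes higher and 128 lower, against 87 and 98. Why the counts moved was not tested. Same-numbered libraries correlated at 0.470, -0.0322, -0.395 and 0.136. The libraries differ in cell makeup, so these values cannot tell whether the numbers pair the mice. A replicate block for all cells called 0 members. For LSEC-like cells no paired analysis was possible because the diets share only number 4. A minimum of 20 cells could not be fitted for the class contrasts. Depth limits the diet comparisons: 21 of 33 members in LSEC-like cells were too sparse to test.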

Other observations

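Within LSEC-like cells of HFHC 4, 16 members could be compared between cells with a UMI of Esm1, a tip cell gene, and cells without one. The intervals of 2 lay below 1 and of 0 above. The same share over all genes was not computed, so these counts do not set the members apart from other genes. Acaa2 had 36.0 CPM in the 133 cells with an Esm1 UMI and 72.5 CPM in the 400 cells without one, a ratio of 0.496 (0.232 to 0.975; counting error only, cells of 1 mouse). Etfb had 151 CPM in cells with an Esm1 UMI and 226 CPM in cells without one, a ratio of 0.667 (0.468 to 0.937). Ucp2 had 111 CPM in cells with an Esm1 UMI and 126 CPM in cells without one, a ratio of 0.885 (0.574 to 1.34), and Pdk4 had 42.6 CPM in cells with an Esm1 UMI and 40.3 CPM in cells without one, a ratio of 1.06 (0.496 to 2.14). Cells with an Esm1 UMI also held more UMIs in all, and the part of depth in these differences was not tested.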
